A study of Mus musculus with 6 samples.

Results

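The genes described here are 39 genes of vessel-lining (endothelial) cells and of the growth factors that act on them that were listed by name. They comprise 20 pan-endothelial genes, 8 genes of veins and capillaries, 3 genes of arteries, 4 genes of lymphatic vessels and 4 angiogenic ligands. They were read by 65 of the 56605 probes on the arrays, and the gene name in the files and in the reference gene table was the same for each of the 65. Of the 39 genes, 37 were bright enough to enter the test, which ran over 20725 genes. Sele and Flt4 were not, and are described by their detection.

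RNA came from common bile duct (CBD) epithelium of C57BL/6 mice named iFGF10 in the labels, an inducible model of the secreted growth factor FGF10. The 3 DOX+ samples came from mice with 0.02% doxycycline in the drinking water for 5 days, and the 3 DOX- samples from mice that drank plain water for the same time. Doxycycline is the antibiotic that switches tetracycline-controlled genes. The DOX- samples are called untreated iFGF10 mice in one label and carry names beginning with WT and a pair of numbers in another, so the labels do not settle whether these mice carried the construct or whether each sample pools mice. The promoter that drives the construct and the age of the mice are not given in the sources used here. Mice without the construct that drank doxycycline were not analysed here, so the drug and the induced gene cannot be told apart. Each sample was hybridised in 1 colour (Cy3) to 1 Agilent array of 60-base probes. On these arrays 55.93% to 61.9% of 59305 non-control spots were well above background, the lowest share being that of DOX- 3. That array also had the lowest median intensity, 50.82 beside 63.96 to 80.38 on the others. The duct markers Epcam, Krt7 and Krt19 were well above background on all 6 arrays, and so were the endothelial genes Pecam1, Cdh5, Kdr and Tek, so the samples labelled as epithelium also held RNA of vessels. No array detected Fgf10 above background with any of its 3 probes, and whether these match the induced transcript is not known. Having only 3 arrays per group limits the precision. The labels do not tie each array to a separate animal, so a p-value here reflects the spread between samples, which may be technical.

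Endothelial cells form the inner lining of blood and lymph vessels. They are held together by adhesion molecules such as PECAM1 and VE-cadherin (Cdh5) and depend on vascular endothelial growth factors (VEGF), secreted by neighbouring cells, which act through the receptors encoded by Flt1, Kdr and Flt4. Angiopoietins act through the receptor Tek (TIE2), with TIE1 as its partner, and control vessel stability. Arteries, veins, capillaries and lymphatic vessels add their own genes to this common set. In the wall of a bile duct the epithelium is fed by a plexus of small vessels that runs beneath it.

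Levels below are log2 of the processed spot intensity relative to the 75th percentile of its array, so that 0 is that percentile and 1 is a doubling. Differences are DOX+ minus DOX- on the same scale, with the standard error of the fit. Levels of different genes come from different probes and are not set against each other.

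Pan-endothelial genes mostly had modestly higher levels in the DOX+ samples. All 20 had a higher mean in DOX+ under the scaling used (19 of 20 after quantile normalization, where Sox7 was below 0, and 18 of 20 with each array scaled to its median, where Sox7 and Icam2 were). Of all genes tested 48.8% were higher and 51.2% lower. Scaling to the array median moved the median of all genes to -0.11 and left 35.2% higher, and the differences of Sox7 and Icam2 then were -0.06 and -0.08, still above that median. The median difference of the 20 was 0.44 (range 0.02 to 1.52) against -0.01 over all 20725 genes. In 8 of the 20 the 3 DOX+ arrays all lay above the 3 DOX- arrays, which was so in 10.4% of all genes. In 6 of the 20 the unadjusted limma p was under 0.05 with a higher mean, beside 7.17% of all genes. No member passed limma's test after Benjamini-Hochberg adjustment over 20725 genes, a threshold that 0.0386% of all genes passed, and the smallest adjusted p of a member was 0.208. Counted over the 37 members tested (Selp and Ackr1, dim on a DOX- array, included), 31 were higher and 6 lower. Among genes well above background on all 6 arrays, 29 of 35 members were higher, beside 47% of all such genes. Groups did not overlap in 12 of the 37, all of them higher (10.4% of all genes were higher without overlap and 10.6% lower). An unadjusted limma p under 0.05 was found for 11 (13.4% of all genes), of which 10 were higher and 1 lower (6.18% of all genes for the lower side). RNA of bulk tissue was measured, so more endothelial cells and more RNA of these genes per cell cannot be told apart.

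**Figure D1:**
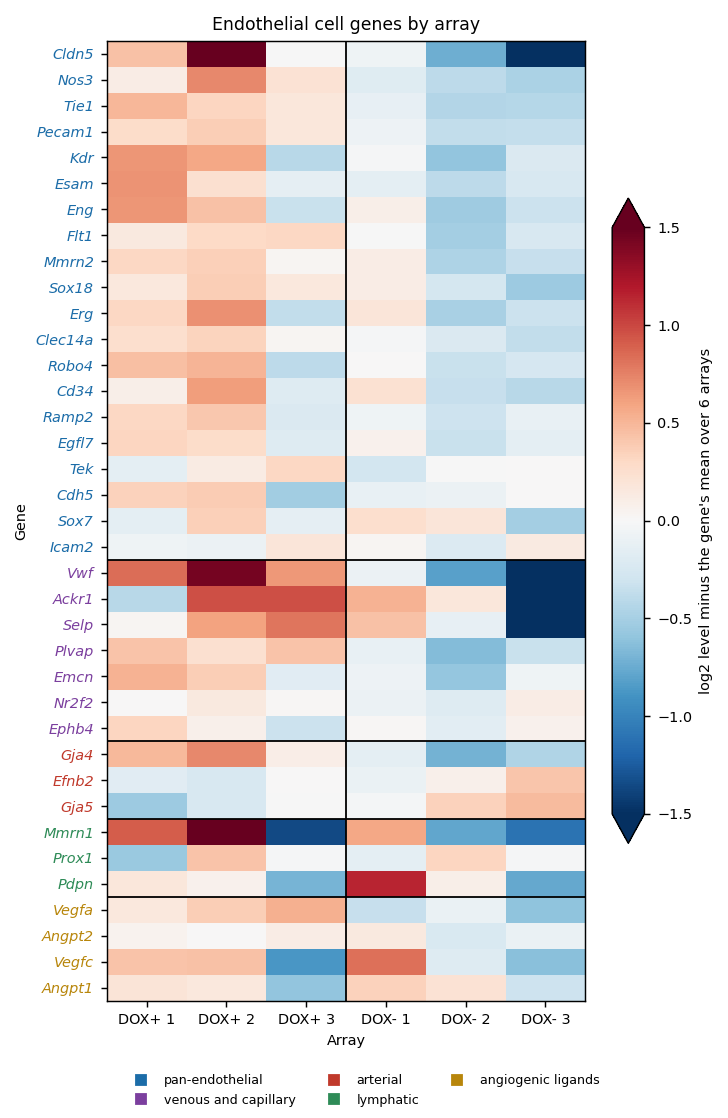
Heat map of the 37 members tested (rows, grouped and coloured by vessel type) on the 6 arrays (columns); colour is the log2 level minus the gene's mean over the 6 arrays, clipped at 1.5 in either direction. Among the 20 pan-endothelial genes DOX+ 1 and DOX+ 2 are mostly red, DOX+ 3 is the palest of the DOX+ arrays, and DOX- 1 is paler than DOX- 2 and DOX- 3.

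Pecam1 encodes CD31, the adhesion molecule used in histology to mark endothelium, and was read by a probe at chr11:106540864-106540923 (mm9, as are all probe coordinates here). Its levels were -1.52, -1.43 and -1.63 on DOX+ arrays 1 to 3 and -1.88, -2.17 and -2.16 on DOX- arrays 1 to 3. Every DOX+ array was above every DOX- array, and the spread within each group (SD 0.10 and 0.16, n = 3 each) was smaller than the difference of 0.55 ± 0.14 (SE; 1.46-fold; limma adjusted p = 0.234). Tie1, the orphan receptor that partners TIE2, gave -0.86, -1.04 and -1.19 in DOX+ and -1.49, -1.80 and -1.79 in DOX-, again without overlap. The difference was 0.66 ± 0.15 (SE; limma adjusted p = 0.210). Tie1 was read at chr4:118144132-118144191.

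The VEGF receptors were unlike each other in spread. Flt1 encodes VEGFR1, which binds VEGF-A tightly and limits its action. It had levels of 2.33, 2.48 and 2.49 in DOX+ and 2.18, 1.67 and 1.94 in DOX-, so that the lowest DOX+ array stood just above the highest DOX- array. The difference was 0.50 ± 0.16 (SE; limma adjusted p = 0.301), and 2 further probes of Flt1, both annotated to the transcript ENSMUST00000110529, gave 0.82 ± 0.27 and 0.80 ± 0.23, also without overlap. Kdr encodes VEGFR2, the main signalling receptor for VEGF-A. Its levels were 1.52, 1.44 and 0.45 in DOX+ and 0.85, 0.27 and 0.65 in DOX-. DOX+ 1 and DOX+ 2 were above all DOX- arrays and DOX+ 3 lay below 2 of them, and the difference of 0.55 ± 0.33 (SE; limma adjusted p = 0.507) was less than the SD of 0.60 within DOX+.

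Cdh5 encodes VE-cadherin, the cadherin of endothelial junctions. It split the DOX+ arrays in the same way, at -0.51, -0.48 and -1.38, while the DOX- arrays lay close together at -0.97, -0.95 and -0.85. Its difference of 0.13 ± 0.26 (SE; limma adjusted p = 0.855) became 0.43 without DOX+ 3, and 0.00 or -0.02 without DOX+ 1 or DOX+ 2. Tek, the angiopoietin receptor, differed by 0.18 ± 0.17 (SE; limma adjusted p = 0.667). Its levels of -1.94, -1.67 and -1.48 in DOX+ overlapped those of -2.06, -1.80 and -1.79 in DOX-, and here DOX+ 3 was the highest of the 6 arrays.

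**Figure D2:**
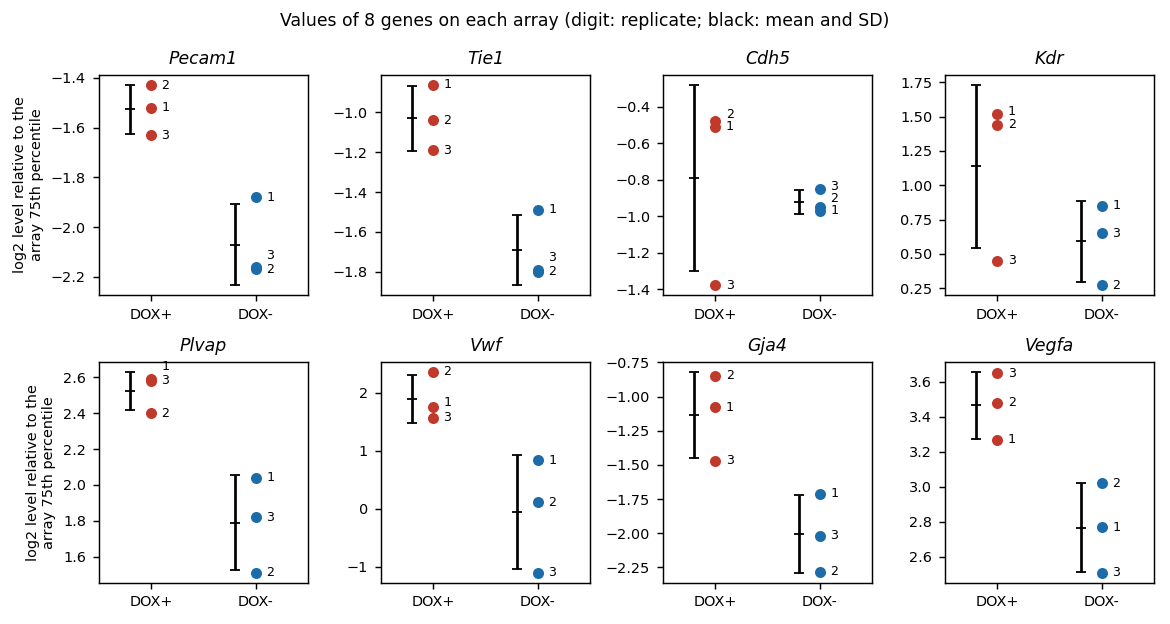
Levels of 8 genes on each array (log2 relative to the array's 75th percentile, vertical scale set per panel); red points are DOX+ and blue points DOX-, digits give the replicate, and the black mark and bar give the mean and SD of 3 arrays. Pecam1, Tie1, Plvap, Vwf, Gja4 and Vegfa have no overlap between groups, while Cdh5 and Kdr have 1 low DOX+ array, replicate 3.

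Genes of endothelial junctions, signalling and transcription also had groups that did not overlap. Cldn5, the tight-junction claudin of vessels, showed the widest difference of the pan-endothelial genes and the widest spread. Its levels were -0.09, 1.32 and -0.54 in DOX+ and -0.60, -1.26 and -2.02 in DOX-, a difference of 1.52 ± 0.57 (SE; limma adjusted p = 0.344) in which DOX+ 3 and DOX- 1 nearly met. It was 0.98 without DOX+ 2, and 0.83 when slide row was blocked. Esam, an adhesion molecule of endothelial tight junctions, gave 1.88, 1.44 and 1.07 in DOX+ and 1.06, 0.81 and 0.96 in DOX-, so that the groups all but touched at a difference of 0.52 ± 0.22 (SE; limma adjusted p = 0.386). Nos3, the endothelial nitric oxide synthase, gave 0.12, 0.73 and 0.23 in DOX+ and -0.17, -0.39 and -0.47 in DOX-. Its difference of 0.70 ± 0.20 (SE; limma adjusted p = 0.256) was over 2 times the SD within either group. Clec14a, a C-type lectin of endothelium, was at -2.86, -2.77 and -3.08 in DOX+ and -3.13, -3.33 and -3.48 in DOX-, a difference of 0.41 ± 0.15 (SE; limma adjusted p = 0.342). Sox18, a transcription factor of developing blood and lymph vessels, was at -1.48, -1.27 and -1.48 in DOX+ and -1.53, -1.90 and -2.19 in DOX-. Its difference was 0.46 ± 0.20 (SE; limma adjusted p = 0.381), with a gap of only 0.05 between DOX- 1 and the nearest DOX+ arrays.

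The other pan-endothelial genes had groups that overlapped. Differences were 0.51 ± 0.31 (SE) for the TGF-beta co-receptor endoglin (Eng), 0.46 ± 0.19 for the matrix glycoprotein Mmrn2, 0.42 ± 0.32 for the ETS factor Erg and 0.38 ± 0.27 for the guidance receptor Robo4. They were 0.35 ± 0.27 for Cd34, 0.33 ± 0.20 for Ramp2, which adapts the adrenomedullin receptor, and 0.27 ± 0.19 for the secreted factor Egfl7. Icam2 and Sox7 were close to 0, at 0.02 ± 0.15 and 0.05 ± 0.26. Both Icam2, an adhesion ligand for leukocytes, and Sox7, a relative of Sox18, thus differed by less than the error of the difference.

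**Figure D3:**
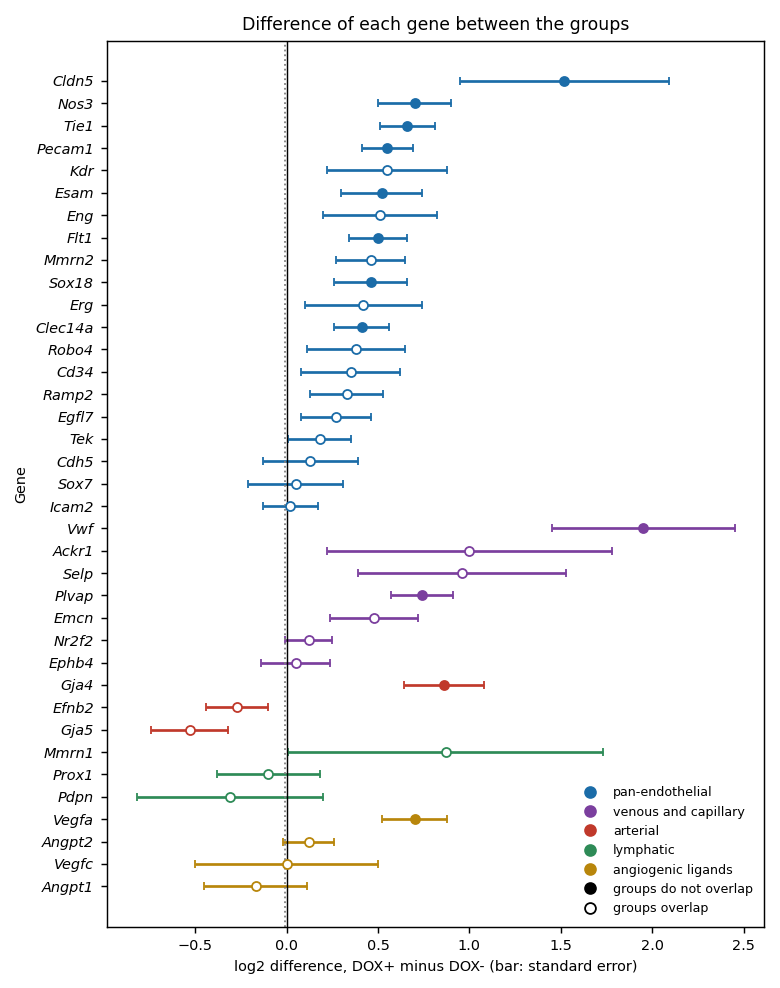
Difference of each of the 37 members (log2, DOX+ minus DOX-), with bars of 1 standard error; colours give the vessel group, filled points are genes whose 3 DOX+ and 3 DOX- arrays do not overlap, and the dotted line is the median of all 20725 genes at -0.01. All 20 pan-endothelial and all 7 venous and capillary genes lie above 0, Vwf and Cldn5 farthest, and 2 of the 3 arterial genes lie below.

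The DOX+ arrays did not contribute equally. DOX+ 1, DOX+ 2 and DOX+ 3 stood above all DOX- arrays in 16, 19 and 10 of the 20 pan-endothelial genes, beside 27%, 27.7% and 28% of all genes. DOX+ 3 was the lowest of its group in 15 of the 20, and DOX- 1 the highest of its group in 17 of the 20, beside 38.6% and 29.1% of all genes. DOX- 1 also shared the first row of the slide with the DOX+ arrays, while DOX- 2 and DOX- 3 lay in the second. A fit that blocks on slide row rests on DOX- 1 as the only control, and in it the pan-endothelial median was 0.20, 17 of 20 were higher, and 1 of the 37 members had an unadjusted limma p under 0.05, beside 6.84% of all genes.

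Endothelial genes are textbook targets of ETS factors such as ERG and FLI1, whose sites share a GGAA core. RefSeq promoter windows (GRCm38.p6) were held for 26 of the 39 genes, 32 windows in all, and the 250 bases before each start were searched on both strands for CAGGAA and CCGGAA, which cannot overlap each other. At least 1 match was present in 15 of the 32 windows (46.9%) and in 9 of the 15 pan-endothelial windows (60%), beside 35.1% of all 32851 windows of that length. The share was 43.8% of member windows for CAGGAA alone, against 25.7% of all windows, and for CCGGAA alone 3.12% against 12%. The motif GATAAG of GATA factors was in 1 of the 32 member windows and 2151 of all 32851, and the motif ACAATG of SOX factors in 2 and 3512. A match is a string of letters in a window and no measured site. Windows without a match included those of Cldn5 and Flt1, whose groups did not overlap, and 1 of the 2 windows of Vegfa. Shown, chosen because they hold a match, are the windows of 3 genes with groups that did not overlap, Tie1 at chr4:118489850-118490099 (minus strand), Clec14a at chr12:58269259-58269508 (minus strand) and the arterial gene Gja4 at chr4:127314040-127314289 (minus strand), and of Tek at chr4:94739039-94739288 (plus strand), whose groups overlapped. They read 5′ to 3′ on the strand of the gene, with matches of CAGGAA or its reverse complement TTCCTG in capitals.
Tie1: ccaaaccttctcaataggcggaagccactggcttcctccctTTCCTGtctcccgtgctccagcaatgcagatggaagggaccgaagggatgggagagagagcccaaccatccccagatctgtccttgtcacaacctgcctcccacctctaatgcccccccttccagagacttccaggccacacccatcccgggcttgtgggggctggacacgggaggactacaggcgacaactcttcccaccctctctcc
Clec14a: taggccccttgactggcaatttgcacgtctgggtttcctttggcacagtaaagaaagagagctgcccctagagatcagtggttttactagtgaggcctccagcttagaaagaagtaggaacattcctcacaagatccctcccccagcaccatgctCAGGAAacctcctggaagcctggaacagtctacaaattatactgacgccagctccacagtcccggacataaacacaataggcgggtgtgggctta
Gja4: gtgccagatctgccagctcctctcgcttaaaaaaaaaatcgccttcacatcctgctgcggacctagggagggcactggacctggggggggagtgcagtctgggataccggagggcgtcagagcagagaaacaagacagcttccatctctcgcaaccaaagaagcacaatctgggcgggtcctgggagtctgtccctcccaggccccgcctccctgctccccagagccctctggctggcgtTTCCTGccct
Tek: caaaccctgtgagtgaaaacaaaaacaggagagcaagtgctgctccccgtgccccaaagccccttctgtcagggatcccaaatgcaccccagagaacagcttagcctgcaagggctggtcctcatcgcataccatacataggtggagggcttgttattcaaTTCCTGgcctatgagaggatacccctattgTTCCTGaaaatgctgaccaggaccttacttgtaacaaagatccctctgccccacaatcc
Tek, with 2 matches, had overlapping groups, while Tie1, Clec14a and Gja4 have 1 match each.

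Genes of veins and capillaries lay on the same side. All 7 tested had a higher mean in DOX+, with a median of 0.74 (range 0.05 to 1.95). Selp and Ackr1 entered the test only through the DOX+ arrays, and the 5 genes well above background on all 6 arrays were all higher with a median of 0.48. The median of the 7 was 0.32 without DOX- 3, and 6 of 7 were higher after scaling to the array median. Vwf encodes von Willebrand factor, the blood-clotting protein that endothelium stores and secretes, and showed the widest difference of all members. Its levels were 1.76, 2.36 and 1.57 in DOX+ and 0.84, 0.11 and -1.10 in DOX-. The DOX+ arrays lay within 1 unit of each other and the DOX- arrays spread over nearly 2, with DOX- 3 the lowest. The difference was 1.95 ± 0.50 (SE; 3.86-fold; limma adjusted p = 0.237). Blocking on slide row gave 1.05. The other 2 Vwf probes were well above background on all DOX+ arrays but on only 1 and 2 of the 3 DOX- arrays. Their measured differences, 1.43 ± 0.48 and 1.88 ± 0.49, thus rest in part on signals at background.

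Plvap encodes the protein of the diaphragms that span the pores of fenestrated capillaries and venules. Its levels of 2.59, 2.40 and 2.58 in DOX+ were all above those of 2.04, 1.51 and 1.82 in DOX-, and the difference of 0.74 ± 0.17 (SE; 1.67-fold; limma adjusted p = 0.208) had the smallest p of any member. Its probe lies at chr8:74021877-74021936 and that of Vwf at chr6:125636551-125636610. Emcn, a sialomucin of veins and capillaries, differed by 0.48 ± 0.24 with overlapping groups.

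Selp (P-selectin) and Ackr1, which binds chemokines on venules, differed by 0.96 ± 0.57 and 1.00 ± 0.78. Both were well above background on all DOX+ arrays but on only 2 of 3 DOX- arrays, DOX- 3 being the exception, and without that array the differences were 0.32 and 0.16. Sele (E-selectin), which endothelium makes when activated by inflammatory cytokines, stayed at background on each of the 6 arrays. Its measured values were -7.30, -7.55 and -7.40 in DOX+ and -7.34, -7.31 and -7.02 in DOX-. The venous transcription factor Nr2f2 (COUP-TFII), also made by other cells of the duct wall, differed by 0.12 ± 0.13 and the venous receptor Ephb4 by 0.05 ± 0.19. A further Ephb4 probe, annotated to the transcript ENSMUST00000144296, gave 0.50 ± 0.15 without overlap, while the second RefSeq probe of Ephb4 gave 0.12 ± 0.17.

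Arterial genes did not move together. Gja4 (connexin 37), a gap-junction protein of arterial endothelium, was at -1.08, -0.85 and -1.47 in DOX+ and -1.71, -2.28 and -2.02 in DOX-. The groups did not overlap, and the difference was 0.86 ± 0.22 (SE; limma adjusted p = 0.237). Efnb2 encodes ephrin-B2, the arterial ligand of EPHB4 that epithelia also express. It was at 2.78, 2.71 and 2.95 in DOX+ and 2.85, 3.03 and 3.37 in DOX-, with overlap and a difference of -0.27 ± 0.17 (SE; limma adjusted p = 0.534).

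Gja5 (connexin 40) gave opposite signs on different probes. The brightest, annotated to the cDNA AK038780 at chr3:96881280-96881339, stood for the gene. It was at -3.15, -2.84 and -2.61 in DOX+ and -2.63, -2.25 and -2.12 in DOX-, a difference of -0.53 ± 0.21 (SE; limma adjusted p = 0.360), with DOX+ 3 just above DOX- 1. The probe of the RefSeq transcript NM_008121 at chr3:96857349-96857408 was at -2.39, -2.92 and -3.77 in DOX+ and -3.97, -4.65 and -4.17 in DOX-. On that probe every DOX+ array was higher, by 1.24 ± 0.37 on average. The remaining probe, of the transcript NM_001271628, was lower in every DOX+ array, by -0.27 ± 0.15. With RefSeq probes alone 2 of the 3 arterial genes were higher and their median was 0.86, in place of 1 of 3 and -0.27, so no direction can be given for the arterial genes or for Gja5.

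**Figure D4:**
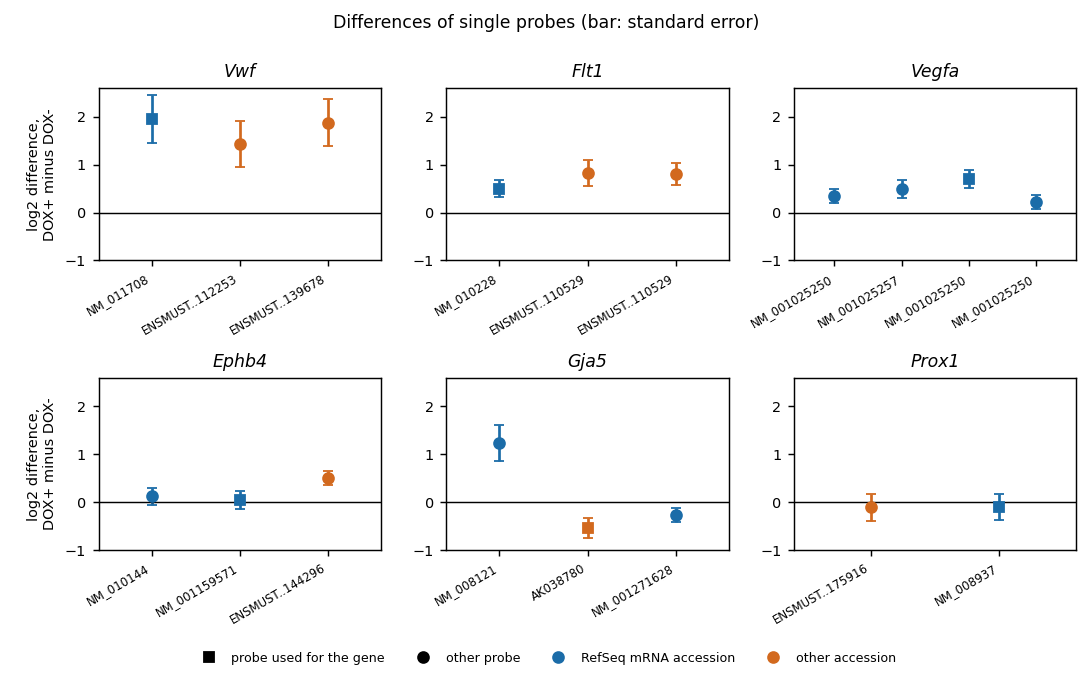
Difference of each probe kept (log2, DOX+ minus DOX-; bars are 1 standard error) for 6 members with several probes; squares mark the probe that stood for the gene, blue a RefSeq mRNA accession and orange another accession. The probes of Vwf, Flt1, Vegfa, Ephb4 and Prox1 keep one side of 0 within a gene, whereas those of Gja5 lie on both sides.

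Lymphatic genes showed no common direction, with wide spread. Prox1, the master transcription factor of lymphatic endothelium, which hepatocytes and some epithelia also make, was at -2.93, -1.95 and -2.40 in DOX+ and -2.53, -2.06 and -2.40 in DOX- (difference -0.10 ± 0.28, SE). Pdpn (podoplanin), a mucin-like protein shared with fibroblasts and mesothelium, was at 0.35, 0.24 and -0.52 in DOX+ and 1.32, 0.26 and -0.59 in DOX- (difference -0.31 ± 0.51, SE). Its highest array was DOX- 1, and without it the difference was 0.18. Mmrn1, made by lymphatic endothelium and platelets, was at -1.47, -0.62 and -3.73 in DOX+ and -1.80, -3.16 and -3.48 in DOX-, with DOX+ 3 the lowest of the 6 arrays. Its difference of 0.87 ± 0.86 was 1.77 without DOX+ 3, 0.21 without DOX+ 2, 0.54 without DOX- 3, 1.38 without DOX- 1 and -0.15 when slide row was blocked. Flt4 (VEGFR3), the receptor for VEGF-C, was detected above background on 2 of 3 DOX+ arrays and 0 of 3 DOX- arrays, with levels of -4.71, -2.83 and -5.84 against -7.18, -6.07 and -5.04. The groups overlapped, and against background on the DOX- arrays the measured DOX+ mean was 1.36-fold higher. That mean includes a DOX+ array not detected above background, so this fold is no lower limit.

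Among the ligands, the mRNA of VEGF-A was higher in every DOX+ array. Vegfa encodes the main growth factor of blood vessels, which epithelial cells secrete, and was at 3.27, 3.48 and 3.65 in DOX+ and 2.77, 3.02 and 2.51 in DOX-. The difference was 0.70 ± 0.18 (SE; 1.62-fold; limma adjusted p = 0.237), and blocking on slide row gave 0.69. This probe lies at chr17:46154387-46154446. Of the other 3 Vegfa probes, those at chr17:46155512-46155571 and chr17:46162376-46162435 gave 0.35 ± 0.14 and 0.50 ± 0.19 without overlap. The last gave 0.22 ± 0.15 with overlapping groups, at -3.34, -3.33 and -3.58 in DOX+ and -3.44, -3.76 and -3.70 in DOX-. It is shown because it covers a stretch of basic residues that binds heparan sulphate. Some longer forms of VEGF-A hold this stretch, and splicing removes it from other forms. Capitals mark codons of lysine and arginine, 10 of the 19 codons of the reading frame richest in them, at chr17:46159226-46159282 on the minus strand. The interval is the one the files give and spans 57 bases, while the probe has 60.
Vegfa: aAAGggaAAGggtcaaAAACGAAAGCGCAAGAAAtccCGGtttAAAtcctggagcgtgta
Whether the forms of Vegfa differed from each other between the groups was not tested.

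The lymphatic growth factor Vegfc was at -0.96, -0.95 and -2.27 in DOX+ and -0.57, -1.58 and -2.02 in DOX-, with a difference of 0.00 ± 0.50 (SE). DOX+ 3 was the lowest of the 6 arrays, and without it the difference was 0.44. Angpt1, the vessel-stabilising ligand of TIE2 made by pericytes and other mural cells, was at -0.11, -0.15 and -0.90 in DOX+ and 0.04, -0.09 and -0.61 in DOX- (difference -0.17 ± 0.28, SE). Angpt2, its context-dependent antagonist, made by endothelium itself, was at -1.45, -1.50 and -1.39 in DOX+ and -1.36, -1.73 and -1.60 in DOX- (difference 0.12 ± 0.14, SE). Groups of these 3 genes overlapped, and the differences were smaller than their errors.

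Other genes of vessels were counted beside the members. They were listed by what they are known to do, but with earlier results of these data known. Their counts are thus no independent check. Of a further 25 pan-endothelial genes tested, 21 were higher and 4 lower (18 higher when slide row was blocked), and the median was 0.49. An unadjusted limma p under 0.05 with a higher mean was found for 10 (7.17% of all genes). Higher groups without overlap were also found for 10 (10.4% of all genes). The smallest p belonged to the transcription factor Gata2 (1.35 ± 0.28), the adhesion receptor Adgrl4 (0.69 ± 0.15) and the membrane protein Cyyr1 (0.80 ± 0.17). Adjusted p of the 3 by limma were 0.194, 0.195 and 0.199. Gata2 is also made by mast cells. Among 8 further arterial and Notch genes all 8 were higher (median 0.46), or 6 of 8 when slide row was blocked. Higher groups without overlap were found for 3 (10.4% of all genes). They were the Notch ligand Jag2 (0.93 ± 0.18), the semaphorin Sema3g (1.11 ± 0.32) and the endothelial receptor Notch4 (0.52 ± 0.18). Adjusted p of these by limma were 0.180, 0.269 and 0.320.

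Of 12 capillary genes 9 were higher and 3 lower (median 0.71). Car4, the carbonic anhydrase of capillary surfaces that some epithelia also make, was at 4.66, 2.29 and 4.07 in DOX+ and 0.18, -0.20 and 0.93 in DOX-, a difference of 3.37 ± 0.64 (SE; limma adjusted p = 0.177) with no overlap. Ly6c1 (0.94 ± 0.25) and the lipase Lpl (1.67 ± 0.50) also had higher groups without overlap. Of 9 further lymphatic genes 7 were higher (2 when slide row was blocked), with the secreted protein Reln at 1.31 ± 0.23 (limma adjusted p = 0.169) and without overlap, Thy1 at 0.53 ± 0.27, and the VEGF-C co-receptor Nrp2 lower on every DOX+ array by -0.17 ± 0.13. Of 8 sinusoidal genes Clec4g, Dnase1l3 and Oit3 were not tested. The 5 tested were all higher (2 of 5 when slide row was blocked), none without overlap. Fcgr2b was at 0.97 ± 0.47, Stab2 at 0.39 ± 0.23 and Stab1 at 0.45 ± 0.42. Gata4 (0.27 ± 0.72) entered the test only through the DOX+ arrays, and Lyve1 (0.13 ± 0.38) was also counted among the lymphatic genes.

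Genes of venular adhesion and inflammatory activation did not share the direction. Of 8 tested 3 were higher and 5 lower (median -0.19). Icam1 was lower by -0.67 ± 0.58, Lrg1 by -0.77 ± 0.75 and the sulphotransferase Chst4 by -0.80 ± 0.28, all with overlapping groups. Chst4 was well above background on only 1 of 3 DOX+ arrays, and Fut7, higher by 0.03 ± 0.69, on only 2 of 3 DOX- arrays. Only 1 of the 8 was higher without DOX+ 1, without DOX+ 3, without DOX- 3 or when slide row was blocked.

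In the wider VEGF and angiopoietin axis 11 of 16 genes were higher and 5 lower (median 0.25). Thbs1 (thrombospondin 1), an inhibitor of angiogenesis, was at -0.02, 1.09 and 0.04 in DOX+ and 1.72, 1.77 and 1.77 in DOX-, a difference of -1.38 ± 0.31 (SE; limma adjusted p = 0.203). The 3 DOX- arrays lay close together and all DOX+ arrays lay below them. Placental growth factor (Pgf), a ligand of VEGFR1, was well above background on all DOX+ arrays but on only 1 of 3 DOX- arrays, so that its measured difference of 1.05 ± 0.27 rests in part on signals at background. The signalling enzyme Plcg1 was higher by 0.42 ± 0.14 without overlap. Hypoxia-response genes, which like Vegfa are induced when oxygen is low, showed no common direction. Of 16 tested 8 were higher and 8 lower (median 0.04), or 5 higher without DOX+ 3, with Bnip3 higher by 0.88 ± 0.22 and P4ha2 and Higd1a lower by -0.91 ± 0.24 and -0.64 ± 0.25. None of the genes in these lists passed the adjusted test.

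Markers of other cell types were counted in the same way, and none passed the adjusted test. All 9 pericyte markers were higher in DOX+, with a median of 0.39 (range 0.21 to 0.75), and Notch3 (0.75 ± 0.19) and Higd1b (0.70 ± 0.18) had groups without overlap, beside 10.4% of all genes. Their summed level, in multiples of the array's 75th percentile, was 9.46 to 12 in DOX+ and 6.42 to 8.59 in DOX-. Of 9 duct epithelium markers 8 were lower and 5 had lower groups without overlap, beside 10.6% of all genes. They included the epithelial cadherin Cdh1 (-2.01 ± 0.37) and the keratin Krt7 (-1.01 ± 0.19), and the summed level was 482 to 525 in DOX+ and 552 to 763 in DOX-. The part of this in the endothelial differences was not tested.

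Smooth muscle markers had 4 of 8 higher, with a median of 0.11 and a summed level of 76 to 177 in DOX+ and 58.1 to 306 in DOX-. The highest of the 6 arrays was DOX- 1, in all 8 smooth muscle markers the highest of its group, as it was for most pan-endothelial genes. Of 7 fibroblast markers 3 were higher and 4 lower (median -0.36, summed level 80.2 to 131 and 99.1 to 151). All 9 mast cell markers tested were higher, with a median of 2.18 and a summed level of 9.59 to 106 in DOX+ and 2.73 to 6.43 in DOX-. Of these, Fcer1a and Ms4a2 were well above background on only 1 of 3 DOX- arrays. Their highest array was DOX+ 3, which was the lowest DOX+ array for most pan-endothelial genes. Platelets share Vwf, Selp and Mmrn1 with endothelium. Of their 8 markers Itga2b, Gp1ba, Gp1bb and Ppbp were not among the genes tested. Of the other 4, 2 were higher, and 1 of these, Treml1 (0.78 ± 0.38), entered the test only through the DOX+ arrays. Pf4 differed by -0.18 ± 0.37, and the summed level was 1.59 to 2.89 in DOX+ and 1.88 to 3.46 in DOX-.

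**Figure D5:**
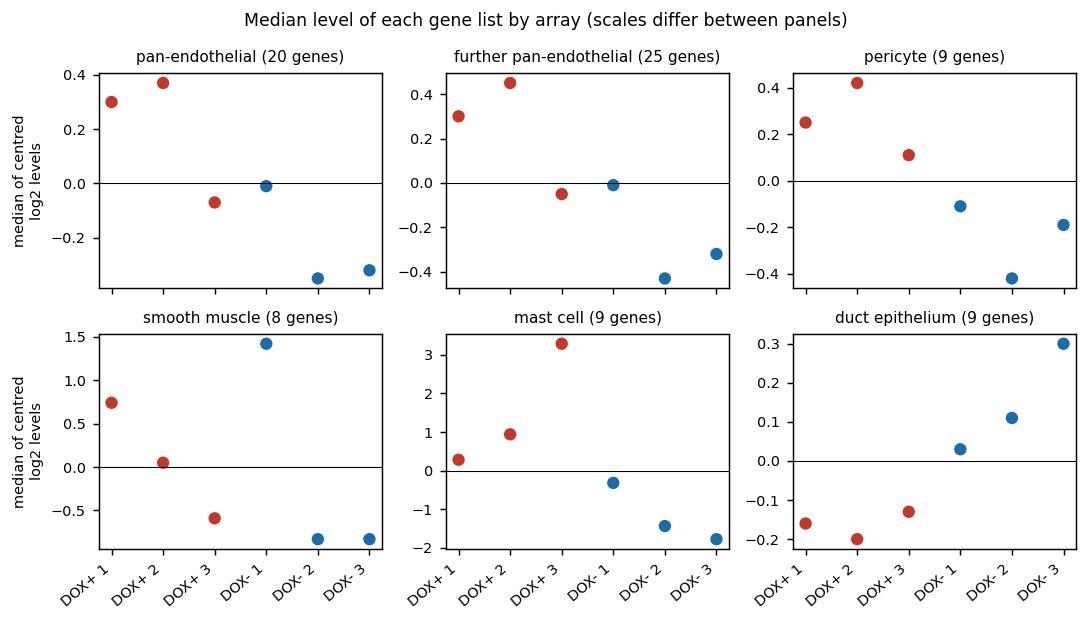
Median over the genes of 6 lists of the log2 level minus the gene's mean over the 6 arrays, for each array (red DOX+, blue DOX-; vertical scale set per panel). For pan-endothelial genes DOX+ 3 at -0.07 lies just below DOX- 1 at -0.01, the pericyte and duct epithelium lists separate the groups in opposite directions, and mast cell markers peak at 3.29 on DOX+ 3.

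Of the remaining markers, 1 of 6 leukocyte genes was higher (median -0.19), with a summed level of 13.6 to 18.3 in DOX+ and of 29.8, 32.4 and 9.1 on DOX- 1 to 3. DOX- 3, the lowest array for Vwf, Selp and Ackr1, thus stood apart from the other DOX- arrays. Higher too were 2 of 6 hepatocyte genes (median -0.25), 2 of 5 Schwann cell and nerve genes (median -0.03) and 2 of 3 mesothelial genes (median 0.42). These 2 mesothelial genes, Upk3b (0.42 ± 1.22) and Upk1b (0.82 ± 1.17), entered the test only through the DOX+ arrays. Msln, the mesothelial gene well above background on all 6 arrays, was lower by -1.06 ± 0.77, so no direction can be given for this list. Both erythroid genes tested were lower (median -0.12), and their summed level ran from 42.7 to 177 in DOX+ and from 38.1 to 284 in DOX-, highest on DOX- 3. These markers of red cells thus varied widely within both groups, and their part in the values was not tested.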

How the data were processed

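The authors deposited 6 scanner files of 1-colour Agilent arrays, 3 DOX+ and 3 DOX-, with spot intensity made in Agilent Feature Extraction 10.7.1.1 per the file headers. The submitters' processing notes name version 9.5.1.1. The headers record background subtraction and spatial detrending of each array on its own. The deposited files also hold flags for outlier spots and spots well above background, and a further table of the authors' processed intensity, on a linear scale with a median of 57.79 on every array, which was used as an alternative. The sources used here do not give its software.

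Outlier spots (50 to 64 an array) were left out, log2 intensity was set relative to each array's 75th percentile (663.1 to 902.78), and spots of a probe were averaged. Probes were kept (31720) if every array of a group, or of both, had them well above background, and the brightest stood for a gene. Names came from the reference gene table through accession (33895 probes), symbol (9464) or older symbol (489), or else from the file (12757). Gene annotation on mm9 was not used here, so exon or UTR positions of probes are not given. Groups were compared in limma 3.58.1 (R 4.3.3; lmFit and eBayes, group alone, two-sided, Benjamini-Hochberg over all genes, threshold 0.05), and the scripts were tested on simulated data. Slide rows were read from the array positions in the file names. All 6 arrays came from 1 scan, so scan was no batch.

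The members and lists were chosen with earlier results of these data known. All 39 members are accounted for: values on every array are given where groups did not overlap, where the unadjusted p was under 0.05 and for a fixed set of anchor genes, and up to 3 genes with the smallest p are named from each vessel list. For a probe below background on every array of a group, the fold set the brighter group's mean against a floor for the dim arrays. The floor was the lowest detected signal of each array, or the probe's own where that was higher. Lists are described by counts and medians, with no test of a list. Alternatives changed the background correction, scaling, filter, choice of probe, blocks, array weights and single arrays.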

Additional observations from a re-analysis of the deposited data

How the results depend on the processing

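Of the 37 members, 24 kept the sign of their difference under every alternative run and 13 did not. No member passed adjusted p 0.05, except Tie1 with array weights (difference 0.75, limma adjusted p = 0.0486, 1 member), where DOX- 2 had a weight of 4.92 and DOX- 3 of 0.39. Members with an unadjusted limma p under 0.05 numbered 11 (13.4% of all genes) and 21 with array weights (25.2% of all genes). With 1 array left out they numbered 7 to 21, beside 7.46% to 15.9% of all genes. The lowest count, 7, was without DOX+ 2 (8.86% of all genes) or DOX- 2 (7.46%). The highest, 21 of 38, was without DOX+ 3 (13.1%). The slide-row block gave medians of 0.15 for all members and 0.20 for pan-endothelial genes (0.15 for venous and capillary genes, -0.03 for arterial genes, -0.25 for ligands). With 1 array left out the medians were 0.21 to 0.56 for all members, 0.36 to 0.60 for pan-endothelial genes and -0.34 to 0.86 for lymphatic genes. The 0.86 was without DOX+ 3, where Flt4 also entered the test (38 members in place of 37), through the DOX+ arrays alone. It therefore does not cover the same genes as the main lymphatic median of -0.10. The cause of these changes was not tested, beyond the entry of Flt4 and the block's own construction, which leaves DOX- 1 as the sole control.

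When slide row was blocked the reversed values were Cd34 -0.05, Sox7 -0.24, Icam2 -0.02, Ackr1 -0.02, Mmrn1 -0.15, Prox1 0.10 and Angpt2 -0.08. Sox7 was also -0.02 after normexp and quantile normalization, -0.06 after quantile normalization, with array median scaling and in the authors' values, and -0.07 with array weights. Array median scaling gave Icam2 -0.08 and Ephb4 -0.06, the mean of probes gave Gja5 0.14 and Vegfc 0.04, array weights gave Vegfc 0.24, and the RefSeq probe, an alternative added after seeing the data, gave Gja5 1.24. With 1 array left out, ranges that crossed 0 were -0.02 to 0.43 for Cdh5, -0.20 to 0.19 for Sox7, -0.08 to 0.10 for Icam2, -0.10 to 0.22 for Ephb4, -0.34 to 0.16 for Prox1, -0.77 to 0.18 for Pdpn, -0.32 to 0.44 for Vegfc and -0.36 to 0.09 for Angpt1.

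With the replicate number as a block, 10 members had an unadjusted limma p under 0.05, beside 10.9% of all genes, and 0 changed sign. Deviations of same-numbered arrays from their group means correlated at -0.086, -0.131 and -0.019, and those of differently numbered arrays at -0.129 to 0.22. With 3 arrays per group this cannot settle whether the numbers pair the samples. The count of all genes past adjusted p 0.05 was 8, 384 with array weights, 0 when slide row was blocked, and 0 to 30 with 1 array left out. Selp, Ackr1, Flt4 and Sele lie near background, which limits their values.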
